A study of Mus musculus with 6 samples.

Results

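The miR-29 family is represented by 4 of the 1973 rows of the count table, the hairpin genes Mir29a, Mir29b-1, Mir29b-2 and Mir29c. They were taken as the rows whose gene identifier carries one of these names in GENCODE M21, and not by a measured value. The family itself was chosen with earlier results of these data known. The counts came from small RNA of exosomes released by HN9.10e cells, an immortalized mouse embryonic hippocampal line labelled as wild type. The 3 control libraries came from untreated cells and the 3 ceramide libraries from cells given 100 nM ceramide, and the medium of both groups was harvested after 48 h. Both groups were grown with fetal bovine serum and represent the same single line. RNA was extracted from a fixed number of exosomes and the counts were scaled to a common total, so the values are proportions of the counted miRNAs and give neither the number of vesicles released nor the RNA per vesicle. The study's methods call the libraries of a group biological replicates, and the labels do not say how the cultures were separated.

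miRNAs are short RNAs cut from hairpin precursors, and they repress messenger RNAs that pair with their seed, the bases near the 5′ end. Mammals express miR-29 as a small family from clusters that each hold a miR-29b hairpin beside a miR-29a or miR-29c hairpin. Its best known targets are collagens and other genes of the extracellular matrix, the DNA methyltransferases Dnmt3a and Dnmt3b, and Mcl1. In neurons it is known to rise with maturation and to target Bace1 and pro-apoptotic BH3-only genes, and it has also been linked to a subunit of serine palmitoyltransferase, the first enzyme of ceramide synthesis.

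The mature sequences show why the 4 rows are one family and why the miR-29b rows cannot be read as independent measurements. They are those of RefSeq for GRCm38.p6, in which all 4 hairpins were found, with the seed (bases 2 to 8) in capitals. The 3p miRNAs share the seed, and no other mature miRNA of that table had it. The 5p miRNAs of the miR-29b hairpins are shown because they are where the products of these hairpins differ.
miR-29a-3p: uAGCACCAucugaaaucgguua
miR-29b-3p: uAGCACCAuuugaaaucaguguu
miR-29c-3p: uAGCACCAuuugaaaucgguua
miR-29b-1-5p: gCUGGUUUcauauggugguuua
miR-29b-2-5p: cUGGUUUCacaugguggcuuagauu
With positions counted from 1 at the 5′ end, miR-29a-3p and miR-29c-3p differed by the single substitution C10U. From miR-29c-3p to miR-29b-3p there were 3 substitutions, G18A, U21G and A22U, and miR-29b-3p has 1 further base. The first 17 bases of miR-29b-3p and miR-29c-3p were identical. The 6-base 3′ end AGUGUU of miR-29b-3p, searched on the mature strand alone, was present in 12 of the 1674 distinct mature sequences (0.717%), and not in miR-29a-3p or miR-29c-3p. The whole of miR-29b-3p is made from both miR-29b hairpins, which shared a stretch of 25 bases.

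The hairpins lie in clusters on separate chromosomes of GRCm38. Mir29a (ENSMUSG00000065610, chr6:31062660-31062747) and Mir29b-1 (ENSMUSG00000065604, chr6:31063023-31063093) are on the minus strand with 275 bases between them. Mir29a overlapped no other annotated gene, and Mir29b-1 overlapped an exon of the noncoding gene Gm27019 by 2 bases. Mir29b-2 (ENSMUSG00000065412, chr1:195037040-195037120) and Mir29c (ENSMUSG00000065548, chr1:195037547-195037634) are on the plus strand with 426 bases between them. Both lie within an exon of the noncoding gene A330023F24Rik and opposite an exon of Cd46, in its untranslated region. The use of strand in the counting is not given in the sources used here, so reads of the opposite strand cannot be told apart. The study's methods name STAR's GeneCounts mode, which by its documentation counts only reads that align to 1 place. A read of miR-29b-3p aligns to both miR-29b hairpins, whose rows nevertheless held nearly equal counts in every library (Pearson r of log2 CPM = 0.998, 6 libraries). Whether the miR-29b rows hold the shared 3p reads, counted on both, was thus not settled, and their level beside Mir29a and Mir29c is uncertain.

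The total counts were 972344 to 1393282 in the control libraries and 800810 to 2760015 in the ceramide libraries, with the lowest total of each group in its replicate 1. Both libraries numbered 1 carry a lane number of 1 in their labels, whereas the other control libraries carry 4 and the other ceramide libraries 2. The labels do not say whether equal lane numbers mean the same sequencing run. Of 13 rows of known neuronal miRNAs, none was without counts, and their summed level was 22258 to 23010 CPM (counts scaled to a common total) in control and 19322 to 25013 CPM in ceramide libraries. The sums of 7 rows of serum, blood cell and liver miRNAs were 1402 to 1465 CPM and 1332 to 1417 CPM, with none of the 7 at 0. Muscle miRNAs (5 rows, none at 0) summed to 126 to 151 CPM and 135 to 164 CPM. The groups overlapped in each of these sums, and the part that RNA of the serum may have in the miR-29 counts was not tested.

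miR-29 was abundant in the exosomes of both groups, and most of it was counted on Mir29a. The 4 rows held 1.38%, 1.22% and 1.21% of all counts in control replicates 1, 2 and 3, and 1.43%, 1.09% and 1.07% in ceramide replicates 1, 2 and 3. The mean share was 1.27% ± 0.0953 in control and 1.20% ± 0.200 in ceramide libraries (SD, n = 3). In each group replicate 1 was the highest, and the groups overlapped. With the miR-29b rows counted once, as their mean, the shares were 1.17% ± 0.0955 and 1.10% ± 0.180 (SD, n = 3).

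By mean normalized CPM, the order of the levels was Mir29a, Mir29c, Mir29b-1 and Mir29b-2, at ranks 28, 89, 108 and 109 of the 418 rows. Per base of hairpin the order was the same. The mean level over the 6 libraries was 101 normalized CPM per base for Mir29a, which placed it at rank 26 of the 418 rows with enough counts to be tested. It was 17.6 normalized CPM per base for Mir29c, at rank 90. For Mir29b-1 and Mir29b-2 it was 13.7 and 11.7, at ranks 99 and 107. These hairpins differ in length while their counts were nearly equal, so the gap per base comes mainly from the lengths. The values per base are thus not levels of the mature miRNAs. Each row counts the 5p and the 3p miRNA of its hairpin together.

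The comparison of ceramide with control asked whether the exosomal level of miR-29 changed when the cells were treated. None of the 4 rows was called different, and the groups overlapped for all 4. Levels are given as CPM scaled by the TMM method of edgeR, and a row was called where its absolute log2 fold change was at least 0.6 with an adjusted p of at most 0.05 (edgeR, quasi-likelihood, Benjamini-Hochberg). By that rule 48 of the 418 rows were called (11.5%), 13 higher and 35 lower with ceramide. The replicate number as a block raised the calls to 87 rows (20.8%), of which 38 rose and 49 fell, and again none was a miR-29 row. The groups did not overlap for 164 of the 418 rows (39.2%).

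Mir29a, the main source of miR-29 in these exosomes, measured 9816, 8521 and 8211 normalized CPM in control replicates 1, 2 and 3. In ceramide replicates 1, 2 and 3 it measured 10666, 8298 and 7719. The ceramide libraries held both the highest and the lowest value of the 6. The means were 8849 ± 851 in control and 8894 ± 1562 in ceramide libraries (SD, n = 3). The log2 fold change was 0.01 (SE 0.14, 95% interval -0.32 to 0.33), with an edgeR quasi-likelihood adjusted p of 0.982 (Benjamini-Hochberg).

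Mir29c, which differs from Mir29a by a single base in its 3p product, measured 1656, 1586 and 1525 normalized CPM in control replicates 1, 2 and 3. In ceramide replicates 1, 2 and 3 it measured 1765, 1426 and 1360. Replicate 1 was again above the others in both groups, and the remaining ceramide libraries were below every control library. The means were 1589 ± 65.3 and 1517 ± 217 (SD, n = 3). The log2 fold change was -0.07 (SE 0.12, 95% interval -0.35 to 0.21; edgeR quasi-likelihood test, Benjamini-Hochberg adjusted p = 0.677).

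Mir29b-1 measured 959, 979 and 964 normalized CPM in control replicates 1, 2 and 3, and 1241, 870 and 839 in ceramide replicates 1, 2 and 3. Mir29b-2 measured 944, 954 and 940 in the control libraries and 1195, 836 and 807 in the ceramide libraries, in the same order. In both rows ceramide replicate 1 was above every control library, and the other ceramide libraries were below every control library. The log2 fold change was 0.02 for Mir29b-1 (SE 0.16, 95% interval -0.36 to 0.40) and -0.00 for Mir29b-2 (SE 0.16, 95% interval -0.38 to 0.37). The adjusted p was 0.946 and 0.991 (edgeR, quasi-likelihood, Benjamini-Hochberg).

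The 4 intervals lay inside the fold threshold of 0.6 on either side, the widest bound being 0.40 for Mir29b-1. Over all 418 rows the median absolute log2 fold change was 0.36 and the median log2 fold change was -0.01. The fitted changes of miR-29 were close to 0, and their signs changed with the scaling of the libraries. Under DESeq2's size factors, upper-quartile factors and library size alone, the median of all rows moved by 0.07, 0.07 and -0.08 from its value under TMM.

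**Figure D1:**
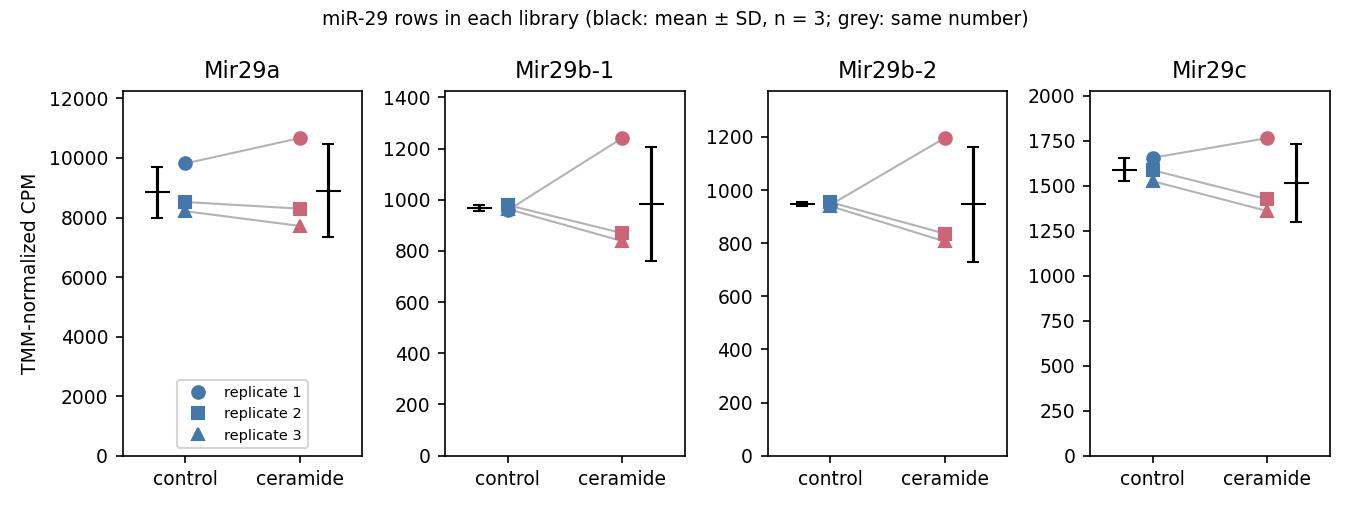
TMM-normalized CPM of the 4 miR-29 rows in each library (vertical axes, each from 0), with control at the left and ceramide at the right of each panel. Symbols give the replicate number, grey lines join libraries of the same number and black marks give the mean ± SD of 3 libraries. Ceramide replicate 1 is the highest point in all 4 panels.

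**Figure D2:**
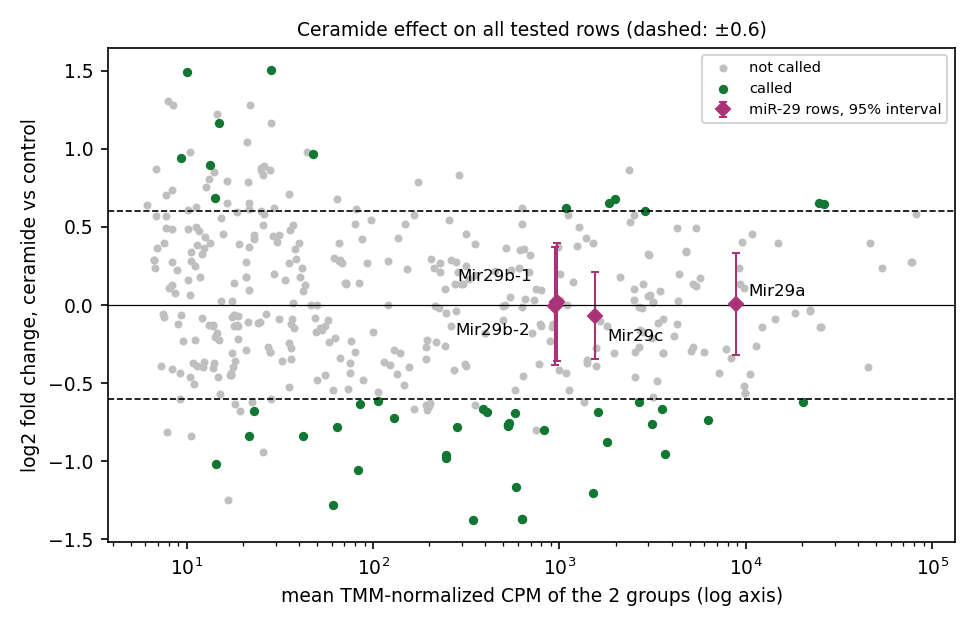
Log2 fold change of ceramide against control (vertical axis) against the mean normalized CPM of the groups (horizontal axis, log scale) for the 418 rows tested. Called rows are green, and the miR-29 rows are diamonds with 95% intervals, which stay between the dashed lines at a log2 fold change of 0.6 and -0.6.

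The spread of the miR-29 rows was larger among the ceramide libraries than among the control libraries. The coefficient of variation of normalized CPM was 9.62% in control and 17.6% in ceramide libraries for Mir29a, and 4.11% and 14.3% for Mir29c. For Mir29b-1 it was 1.08% and 22.8%, and for Mir29b-2 0.790% and 22.9%. Counting error alone gives 0.676% to 3.30% for these rows, so the control libraries differed by less than counting error in the miR-29b rows. The difference in spread between the groups was not tested.

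Within pairs of the same replicate number, and under TMM scaling, all 4 rows were higher with ceramide in replicate 1 and lower in replicates 2 and 3. For Mir29a the log2 differences were 0.12, -0.04 and -0.09 in pairs 1, 2 and 3. For Mir29c they were 0.09, -0.15 and -0.17. For Mir29b-1 they were 0.37, -0.17 and -0.20, and for Mir29b-2 0.34, -0.19 and -0.22. The miR-29b rows are not independent measurements. For Mir29a, the differences of pairs 2 and 3 were close in size to the shifts of the all-row median between scalings given above. Their signs under other scalings were not computed. Pair 1 is also the only pair with equal lane numbers, which may be of separate runs, and in the other pairs lane number and group cannot be told apart. The libraries of pair 1 had the lowest totals of their groups, and the part of run, lane and depth in its different sign was not tested.

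Without ceramide replicate 1, the library with the highest value in every row, all 4 fitted changes were negative, and those of Mir29a and Mir29b-1 thereby changed sign. The log2 fold changes were -0.16 for Mir29a, -0.20 for Mir29b-1, -0.22 for Mir29b-2 and -0.21 for Mir29c. The adjusted p values were then 0.286, 0.120, 0.0961 and 0.121 (edgeR, quasi-likelihood, Benjamini-Hochberg), and no row was called. With lane number as a term, where the ceramide effect rests on pair 1, the log2 fold changes were 0.12, 0.37, 0.34 and 0.09 in the same order. None of the 4 rows was called under any of the 15 other settings tried for each.

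**Figure D3:**
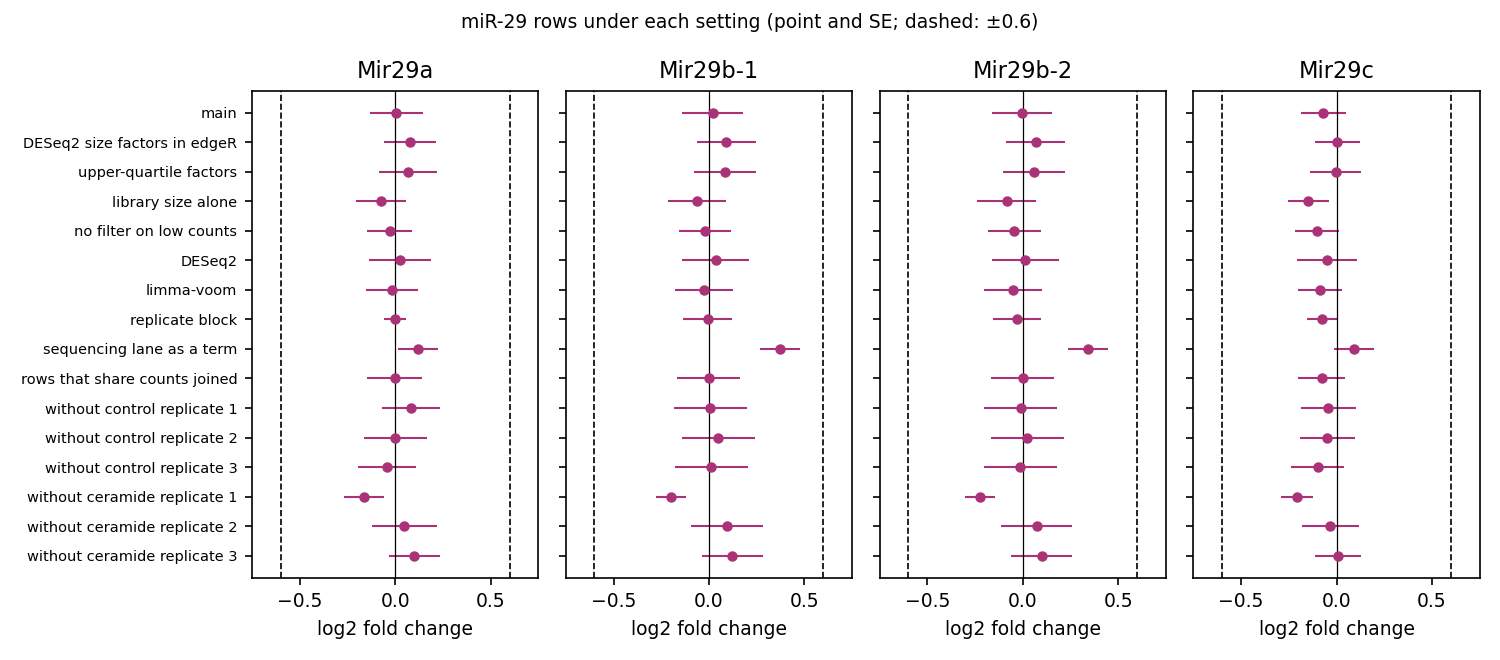
Log2 fold change of ceramide against control (horizontal axes) of the 4 miR-29 rows under the reported setting, at the top, and the 15 others, with bars of 1 SE. All points lie between the dashed lines at 0.6 and -0.6, and the widest range, from -0.20 to 0.37, is that of Mir29b-1.

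The composition of the family was nearly the same in all libraries. With the miR-29b rows counted once, Mir29a held 79.0%, 76.9% and 76.8% of the miR-29 counts in control replicates 1, 2 and 3, and 78.1%, 78.5% and 78.0% in ceramide replicates 1, 2 and 3. The share of Mir29c in control replicates 1, 2 and 3 was 13.3%, 14.3% and 14.3%, and 12.9%, 13.5% and 13.7% in ceramide replicates 1, 2 and 3. The mean share of miR-29b was 8.43% ± 0.674 in control and 8.43% ± 0.443 in ceramide libraries (SD, n = 3). The groups overlapped in all 3 shares.

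Ratios within a library need no scaling between libraries and ask whether the members moved apart. The ratio of Mir29c to Mir29a counts, from hairpins of the same length on separate chromosomes, was 0.169, 0.186 and 0.186 in control and 0.165, 0.172 and 0.176 in ceramide replicates 1, 2 and 3. The groups overlapped, since the ratio was low in both replicates 1. The difference of the mean log2 ratios was -0.07 (exact two-sided permutation test, p = 0.3, n = 3 per group, with 0.1 the smallest p this design allows). Within pairs 1, 2 and 3 it was -0.03, -0.12 and -0.08, lower with ceramide in 3 of 3 (exact sign-flip permutation test, p = 0.25, the smallest that 3 pairs allow).

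For the neighbours Mir29b-1 and Mir29a, the ratio was 0.0977, 0.115 and 0.117 in control and 0.116, 0.105 and 0.109 in ceramide replicates 1, 2 and 3. The control libraries held both the lowest and the highest ratio. The log2 difference was 0.00 (exact two-sided permutation test, p = 1.0), and it was 0.25, -0.13 and -0.11 in pairs 1, 2 and 3.

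**Figure D4:**
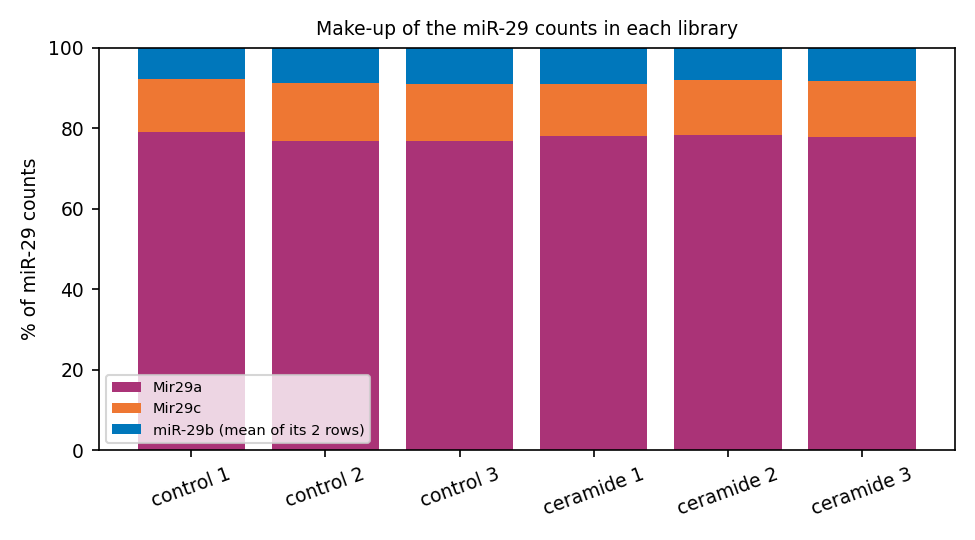
Share of the miR-29 counts (vertical axis, %) held by Mir29a, Mir29c and miR-29b in each of the 6 libraries, with miR-29b as the mean of its 2 rows. Mir29a takes between 76.8% and 79.0% of every bar.

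Set against the most counted row of 3 other miRNA families that are abundant in many cell types, the ratio of Mir29a did not overlap between the groups. These rows were Mirlet7b of the let-7 family, known for its rise in differentiating cells, Mir30d of the miR-30 family and Mir26b of the miR-26 family. By normalized CPM alone, the groups did not overlap for 164 of the 418 rows (39.2%). The share of all rows whose ratio to Mir29a does not overlap was not computed. The ratio of Mir29a to Mirlet7b was 0.149, 0.124 and 0.130 in control and 0.106, 0.0813 and 0.0833 in ceramide replicates 1, 2 and 3. The ratio to Mir26b was 2.28, 1.78 and 1.86 in control and 1.61, 1.25 and 1.34 in ceramide libraries. Both ratios were lower in every ceramide library than in any control library.

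The ratio of Mir29a to Mir30d went the other way, from 2.11, 2.06 and 1.90 in control to 3.90, 2.98 and 2.82 in ceramide replicates 1, 2 and 3, again without overlap. The log2 differences were -0.59 to Mirlet7b, -0.50 to Mir26b and 0.66 to Mir30d. Each had an exact two-sided permutation p of 0.1, the smallest possible with 3 libraries against 3, and 0.1 after Benjamini-Hochberg adjustment over the 3 ratios. The design could thus not bring them under 0.05. A ratio shows that its members changed unequally and does not say which changed. The families were chosen with earlier results of these data known. The study's own list of changed miRNAs from these libraries held let-7b as higher and miR-30d as lower. The ratios to these rows thus largely restate those changes and are no separate test of miR-29. The fitted log2 fold changes were 0.59 (SE 0.07) for Mirlet7b, 0.49 (SE 0.09) for Mir26b and -0.67 (SE 0.08) for Mir30d, beside 0.01 (SE 0.14) for Mir29a. Of these, Mir30d passed both thresholds. Other rows of the miR-30 family had smaller changes, with Mir30a at -0.46, Mir30c-1 at -0.01 and Mir30c-2 at 0.05. The ratio to Mir30d thus does not stand for its whole family. Mirlet7b missed the fold threshold (adjusted p = 0.00260, edgeR quasi-likelihood, Benjamini-Hochberg) and was called in 5 of the 15 other settings, at 0.61 to 0.66.

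**Figure D5:**
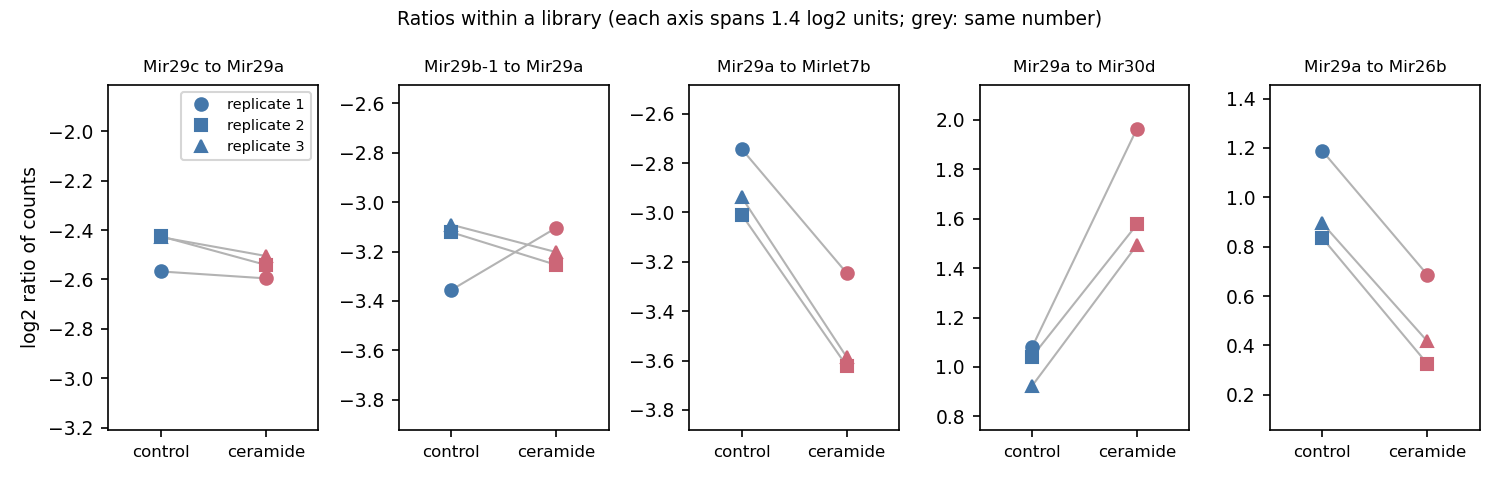
Log2 ratio of counts within each library (vertical axes, each spanning 1.4 log2 units) for Mir29c and Mir29b-1 to Mir29a and for Mir29a to Mirlet7b, Mir30d and Mir26b. Symbols give the replicate number and grey lines join libraries of the same number. The groups overlap in the first 2 panels and not in the other 3.

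Other miRNAs known for targets shared with miR-29 were described for comparison, as counts in lists chosen with earlier results of these data known. For serine palmitoyltransferase, 4 rows were tested and none was called, with a median log2 fold change of 0.14 and Mir137, the neuronal miRNA with the most counts in the list, at 0.24 (SE 0.08). The median lies between Mir9-2 and Mir9-3, which held nearly the same counts (680 and 683 in all) and count as 1 measurement. Mir181c went the other way, at -0.54 (edgeR quasi-likelihood test, Benjamini-Hochberg adjusted p = 0.0390), short of the fold threshold. For Bace1, 1 of 7 rows was called, lower, a share near the 11.5% of all rows, with a median of -0.45. Of the 7, Mir124a-1, Mir124a-2 and Mir124a-3 held nearly the same counts (160, 159 and 159 in all) and count as 1 measurement, and the median is the value of Mir124a-2. The called row was Mir298, which was also the most counted, at 2332 ± 378 normalized CPM in control and 1272 ± 162 in ceramide libraries (SD, n = 3), a log2 fold change of -0.87 (edgeR quasi-likelihood test, Benjamini-Hochberg adjusted p = 0.00810). With the replicate block Mir328 was also called, at -0.77, which made 2 of 7 beside 20.8% of all rows. Mir328 was at -0.80 without the block (adjusted p = 0.0587, edgeR quasi-likelihood, Benjamini-Hochberg) and was called in 5 of its 15 other settings.

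For the DNA methyltransferases, 5 of 6 rows were tested and none was called, with a median of 0.04 and Mir143, the most counted, at -0.28 (SE 0.11). For the extracellular matrix and fibrosis, 13 of 16 rows were tested and none was called, with a median of -0.04, the value of Mir199a-1. Mir199a-1 and Mir199a-2 held nearly the same counts and count as 1 measurement, as do Mir133a-1 and Mir133a-2. Its most counted row, Mir21a, known for promoting fibrosis, had a log2 fold change of -0.40 (edgeR quasi-likelihood test, Benjamini-Hochberg adjusted p = 0.0324), short of the fold threshold. Mir30a at -0.46 and Mir214 at -0.43 were also short of it (edgeR quasi-likelihood test, Benjamini-Hochberg adjusted p = 0.0101 and 0.0448). No row of this list was higher at an adjusted p of at most 0.05.

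Of the 13 neuronal rows, 2 were called, both lower, with a median of -0.21. Counted by rows, this share too was near the 11.5% of all rows. The rows include Mir124a-1, Mir124a-2 and Mir124a-3, which count as 1 measurement, as do Mir9-2 and Mir9-3, so the share of separate measurements is larger. With the replicate block again 2 of 13 were called, both lower, beside 20.8% of all rows. The called rows were Mir128-2 at -0.78 and Mir138-1 at -0.76, with adjusted p values of 0.00260 and 0.00529 (edgeR, quasi-likelihood, Benjamini-Hochberg). Mir218-2, the most counted neuronal row, measured 9113 ± 1092 normalized CPM in control and 12495 ± 2483 in ceramide libraries (SD, n = 3) and was not called. None of the 7 serum, blood cell and liver rows (median 0.03, Mir126a the most counted at 990 ± 62.4 and 1012 ± 84.1 normalized CPM) and none of the 4 muscle rows tested (median -0.00, Mir1a-1 the most counted at 54.9 ± 10.1 and 68.4 ± 11.8) was called. The muscle median lies between opposed rows. Mir133a-1 and Mir133a-2 were both at -0.30, with 251 counts each, and count as 1 measurement. Mir1a-1 was at 0.30 and Mir206 at 0.60 (edgeR quasi-likelihood test, Benjamini-Hochberg adjusted p = 0.0535 for Mir206). The median over all 418 rows was -0.01.

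The rows whose log2 CPM followed Mir29a most closely over the 6 libraries were Mir883b (Pearson r = 0.997), Mir669d (0.965), Mir466d (0.949), Mir199a-2 (0.947, joined with Mir199a-1, whose counts it nearly equals) and Mir669b (0.932). Mir883b measured 580, 491 and 456 normalized CPM in control and 641, 460 and 431 in ceramide replicates 1, 2 and 3, so that replicate 1 was the highest of each group, as for Mir29a. Within the family, r with Mir29a was 0.927 for Mir29c, 0.865 for Mir29b-2 and 0.853 for Mir29b-1, and r between the miR-29b rows was 0.998. The points share their libraries, lanes and scaling factors, and Mir669d and Mir669b rest on low levels, with means of 13.8 and 14.9 normalized CPM.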

How the data were processed

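Per the methods of the study and the submitters' processing notes, the authors trimmed reads with cutadapt 1.15, used STAR 2.5.3a for alignment to GRCm38 (mm10), counted with its GeneCounts mode and deposited raw counts per GENCODE miRNA gene. The GENCODE release, strand setting and handling of molecular identifiers, and how that mode gave nearly equal miR-29b rows, are not given in the sources used here. A read of miR-29b-3p can come from either miR-29b hairpin, so these rows are uncertain as single genes, and intervals from counts cover counting error only. Total counts were 800810 to 2760015 per library.

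Names and coordinates were taken from GENCODE M21, in which 1894 of the 1973 rows were found. The members, lists and naming rule were chosen with earlier results of these data known. The rule named the 4 members, the called rows and most counted row of each list, the most counted row of 3 other families, and the 5 rows most correlated with Mir29a (log2 CPM, prior count 2, rows within 5% of each other in every library joined). Mir181c and Mir328 were computed besides, and other rows of the lists are named where they bear on a median, a share or a ratio.

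Counts were tested with edgeR 4.0.16 (R 4.3.3; TMM, filterByExpr, quasi-likelihood test, condition as the only term, all 6 libraries), after a test on simulated data. Adjustment was by Benjamini-Hochberg over 418 rows. SEs and 95% intervals come from the F statistic. Alternatives were DESeq2 1.42.0, limma-voom 3.58.1, other scalings, no filter, replicate block, lane, joined rows and leaving out each library. Ratios were tested with exact permutation tests (scipy 1.17.1). Groups and numbers came from the labels. Deviations from the group means correlated by 0.59, 0.43 and 0.75 between libraries with the same number (different numbers, -0.59 to 0.10), so numbers were taken to pair the libraries. The reported SEs and intervals do not use this pairing. For Mir29a, Mir29b-1, Mir29b-2 and Mir29c, these SEs were 0.14, 0.16, 0.16 and 0.12. With the replicate block they were 0.06, 0.13, 0.13 and 0.08.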

Additional observations from a re-analysis of the deposited data

How the results depend on the processing

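No miR-29 row was called under any of the 15 alternatives, and their log2 fold changes ranged from -0.16 to 0.12 for Mir29a, -0.20 to 0.37 for Mir29b-1, -0.22 to 0.34 for Mir29b-2 and -0.21 to 0.09 for Mir29c. Signs changed for Mir29a and Mir29b-1 with library size alone (-0.074 and -0.062), no filter (-0.029 and -0.021), limma-voom (-0.017 and -0.027), the replicate block (-0.0028 and -0.0071) and joined rows (-0.0026 and -0.0013). They changed for Mir29b-2 with DESeq2's size factors (0.067), upper-quartile factors (0.061), DESeq2 (0.013) and lane (0.34), and for Mir29c with DESeq2's size factors (0.0026) and lane (0.092). Leaving out each library gave -0.16 to 0.10 for Mir29a, -0.20 to 0.12 for Mir29b-1, -0.22 to 0.10 for Mir29b-2 and -0.21 to 0.0054 for Mir29c. The cause of these changes was not tested.

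The number of rows called, 48, was 87 with the replicate block, 29 with lane, 83 by adjusted p alone, and 28 to 55 when each library was left out, with the 28 without control replicate 1. Calls split into 21 higher and 26 lower under DESeq2's size factors, 23 and 28 under upper-quartile factors and 4 and 42 under library size alone, against 13 and 35. The log2 difference of Mir29a to the summed miR-30 rows was 0.43, against 0.66 to Mir30d. Mir298 and Mir128-2 were not called with lane as a term (-1.02 and -0.65), and Mir30d not under DESeq2's size factors (-0.59). Calls were gained by Mirlet7b with DESeq2's size factors (0.66), upper-quartile factors (0.65), DESeq2 (0.61) and without control replicate 2 (0.64) or ceramide replicate 3 (0.63). Mir328 gained one with upper-quartile factors (-0.72), DESeq2 (-0.76), the replicate block (-0.77) and without control replicate 2 (-0.97) or ceramide replicate 3 (-0.96). Mir181c gained one with library size alone (-0.61). Beyond Mir328, the replicate block changed no call of a named row.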

Other observations

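The miR-29b rows, which share miR-29b-3p, differed by a small excess of Mir29b-1 over Mir29b-2 that was larger in the ceramide libraries. This comparison was chosen after its values had been seen. Mir29b-1 held 961, 1377 and 1317 counts in control replicates 1, 2 and 3, and 955, 2297 and 1970 in ceramide replicates 1, 2 and 3. Mir29b-2 held 946, 1342 and 1284, and 920, 2208 and 1895. The excess was thus 15, 35 and 33 counts in control and 35, 89 and 75 in ceramide libraries.

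As a share of the Mir29b-1 count, the excess was 1.56%, 2.54% and 2.51% in control and 3.66%, 3.87% and 3.81% in ceramide replicates 1, 2 and 3. No ceramide library was as low as any control library. The means were 2.20% ± 0.556 and 3.78% ± 0.107 (SD, n = 3), a difference of 1.58 percentage points (exact two-sided permutation test, p = 0.1, the smallest this design allows). Leaving out each library in turn gave 1.26 to 1.75 points. The 95% Wilson interval takes the excess as a part of the Mir29b-1 count. That holds only if every Mir29b-2 count is also counted on Mir29b-1, which was not settled. With separate counts the counting error would be larger. On that condition the interval, which covers counting error only, was 1.83% to 3.51% for control replicate 2. It was 2.65% to 5.05% for ceramide replicate 1, and these overlap. On the same condition, the interval of control replicate 1, 0.948% to 2.56%, overlapped that of no ceramide library, but separate counts could make them overlap. The excess is a net difference of the rows and does not give the count of either 5p miRNA.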
